A study of Mus musculus with 9 samples.

Results

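The genes described here are 9 members of the Nodal and activin branch of TGF-beta signalling in mouse embryonic stem (ES) cells. They are the ligand genes Nodal, Inhbb and Inhba, the co-receptor gene Tdgf1, the secreted antagonist genes Lefty1, Lefty2 and Fst, and the intracellular antagonist genes Smad7 and Skil. They were chosen by symbol, and each symbol was matched to 1 of the 52636 gene IDs of the count table. The low-count filter kept 16198 genes, among them 8 of the 9 members, all but Inhba. RNA was sequenced from 3 ES cell lines with 3 libraries each. The lines called Esrrb+Nanog cells (titled NanogKO:Esrrb:Nanog, 44JN) and Esrrb cells (NanogKO:Esrrb, 44J) are named in the titles for the genes added to a Nanog knockout. The genotype label of both is N{delta}:cE:iN. The line called Nanog-null cells (NanogKO, 44C6), labelled N{delta}, has the knockout alone. The knockout is thus common to all 3 lines. The cells were grown in medium with 10% serum and LIF (leukaemia inhibitory factor) at 1000 units per ml, without further treatment. Before RNA extraction the cells of every library were sorted for surface PECAM and against PDGFRA, which marks primitive endoderm, the extraembryonic lineage that ES cultures can give rise to. Each group is a single line, so an added gene and the line that carries it cannot be told apart. The labels do not say whether the 3 libraries of a line came from separate cultures, so all p-values here refer to the spread of these particular libraries, which may be technical.

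Nodal and the activins, which are dimers of inhibin beta subunits, bind activin receptors and lead to phosphorylation of SMAD2 and SMAD3, which enter the nucleus with SMAD4 and act at DNA with partners such as FOXH1. Nodal also needs a co-receptor of the EGF-CFC family, of which Tdgf1 (Cripto) is the one best known in the early epiblast. The pathway switches on its own inhibitors: the Lefty proteins block Nodal and its co-receptor outside the cell, and SMAD7 and SKIL (SnoN) act inside it on the receptor and on the SMAD complex. In ES cells Lefty1, Lefty2, Smad7 and Skil are widely read as responsive to this signal.

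Promoter sequences are shown for Nodal and Tdgf1, the ligand and co-receptor genes that were both higher in the lines with added genes, and for Inhbb, the member with the widest range between lines. They run from 250 bases before to 50 bases after the annotated start, 5′ to 3′ on the strand of the gene, and come from RefSeq (build GRCm38.p6). Windows of 4 of the 9 members, Nodal, Tdgf1, Inhbb and Inhba, were searched for motifs. The promoters of the other members, called ones among them, were not searched. Capitals mark matches to AATNNACA, the FOXH1 motif, and to CAGAC, the SMAD motif, each searched on both strands.
Nodal, chr10:61417722-61418021, plus strand: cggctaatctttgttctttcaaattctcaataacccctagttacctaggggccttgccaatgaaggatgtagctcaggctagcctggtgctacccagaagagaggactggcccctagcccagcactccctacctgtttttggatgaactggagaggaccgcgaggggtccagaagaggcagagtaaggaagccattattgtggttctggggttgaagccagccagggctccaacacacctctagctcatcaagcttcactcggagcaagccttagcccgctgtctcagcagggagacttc
Tdgf1, chr9:110946109-110946408, minus strand: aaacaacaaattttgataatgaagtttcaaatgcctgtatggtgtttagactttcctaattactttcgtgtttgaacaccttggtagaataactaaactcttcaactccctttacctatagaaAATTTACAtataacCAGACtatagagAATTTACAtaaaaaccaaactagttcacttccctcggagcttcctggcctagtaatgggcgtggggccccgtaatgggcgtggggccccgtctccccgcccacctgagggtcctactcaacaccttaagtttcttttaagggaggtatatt
Inhbb, chr1:119422199-119422498, minus strand: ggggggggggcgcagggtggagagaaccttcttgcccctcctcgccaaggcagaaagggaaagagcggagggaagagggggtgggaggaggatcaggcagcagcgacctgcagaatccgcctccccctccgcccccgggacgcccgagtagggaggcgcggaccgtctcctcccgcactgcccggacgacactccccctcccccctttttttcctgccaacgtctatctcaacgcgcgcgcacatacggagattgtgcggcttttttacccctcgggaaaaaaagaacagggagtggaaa
The Tdgf1 window held AATTTACA at bases 124 to 131 and again at bases 150 to 157 of the printed run, with CAGAC between them at bases 138 to 142, and none of these overlapped. No match to either motif was found in the windows of Nodal, Inhbb or Inhba. Of 32851 RefSeq promoters of the same 300-base length, 12.2% held the FOXH1 motif and 49.6% held the SMAD motif. The ESRRB motif AAGGTCA, which was added after the data were seen, matched none of the 4 windows and 4.72% of all promoters. A match is a run of letters and was not tested as a binding site.

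Library totals lay between 21808120 and 32496267 counts. Nanog was highest in the line titled with it, and Esrrb was higher in both lines titled with it than in Nanog-null cells. Nanog averaged 281 ± 56 CPM in Esrrb+Nanog cells, 31.7 ± 2.9 CPM in Esrrb cells and 14.9 ± 0.98 CPM in Nanog-null cells (SD, n = 3 each, as in all group means below). CPM are read counts scaled to a common library size by the trimmed mean of M values (TMM), with no pseudocount. Esrrb averaged 1107 ± 48 CPM in Esrrb+Nanog cells, 803 ± 132 CPM in Esrrb cells and 276 ± 25 CPM in Nanog-null cells. By edgeR, Nanog was also higher in Esrrb cells than in Nanog-null cells (log2 change 1.09, adjusted p = 5.92e-05). The title of the Esrrb line names no added Nanog. Esrrb was higher in Esrrb+Nanog cells than in Esrrb cells (0.46, adjusted p = 0.0133). That call was lost without Esrrb+Nanog replicate 2 (0.0544) or Esrrb replicate 1 (0.0633). The lines thus do not differ in the RNA of a single added gene alone. Which part of Nanog the knockout removed is not given in the labels, so its remaining reads check nothing about the deletion. Summed over 8 ES cell markers, which include Pou5f1, Sox2 and the sorted marker Pecam1, the libraries held 3580 to 3870 CPM in Esrrb+Nanog cells, 3990 to 4270 CPM in Esrrb cells and 3510 to 3730 CPM in Nanog-null cells, and no marker was at 0. Single markers moved both ways. Zfp42 averaged 725 ± 22, 634 ± 56 and 349 ± 38 CPM in these lines, and Dppa5a 534 ± 10, 801 ± 67 and 879 ± 24 CPM. By edgeR, 4 were higher and 1 lower in Esrrb cells against Nanog-null cells (48.5% of all tested genes called). In Esrrb+Nanog cells, 0 were higher and 3 lower against Esrrb cells (13.2%), and 3 and 3 against Nanog-null cells (54.4%). Nanog-null replicate 2 stood apart in markers of other cells. It had the highest summed level of its line for 10 primitive endoderm markers (189 CPM), 8 trophoblast markers (243 CPM) and 8 fibroblast markers (83.4 CPM). The counts of members called in each direction were unchanged when this library was left out.

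Changes are given as log2 fold changes with their standard error, the first-named line over the second, from edgeR's quasi-likelihood test with Benjamini-Hochberg adjustment over all tested genes, and a gene is called where the adjusted p is below 0.05. Where Esrrb was the added gene, Esrrb cells against Nanog-null cells, Tdgf1, Smad7 and Nodal were higher and Lefty1 and Skil were lower, which makes 3 higher and 2 lower of 8. In that comparison 48.5% of all tested genes were called, 24.2% higher and 24.2% lower. In Esrrb+Nanog cells against Esrrb cells, 2 members were higher (Inhbb, Smad7) and 3 were lower (Lefty2, Lefty1, Skil), where 13.2% of all tested genes were called, 5.43% higher and 7.75% lower. In Esrrb+Nanog cells against Nanog-null cells, 4 were higher (Smad7, Tdgf1, Inhbb, Nodal) and 3 were lower (Lefty1, Lefty2, Skil), where 54.4% were called, 27.2% each way. The first and the second comparison share Esrrb libraries, the first and the third share Nanog-null libraries and the second and the third share Esrrb+Nanog libraries, so they are not independent of each other.

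The sizes of the members' changes can be set beside those of all genes. The members were chosen with earlier results of these data known, so this contrast only describes them and tests nothing. The median absolute log2 change of the 8 tested members was 1.08 in Esrrb cells against Nanog-null cells, 0.775 in Esrrb+Nanog cells against Esrrb cells and 2.01 in Esrrb+Nanog cells against Nanog-null cells. Over all tested genes it was 0.322, 0.17 and 0.369 in these 3 comparisons. Called changes of more than 2-fold were found in 3, 4 and 5 members, where 16%, 3.6% and 18.5% of all tested genes had one. The median signed change of the members was small by comparison, at 0.49 in Esrrb cells against Nanog-null cells, -0.15 in Esrrb+Nanog cells against Esrrb cells and 0.39 in Esrrb+Nanog cells against Nanog-null cells, with members moving both ways.

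**Figure D1:**
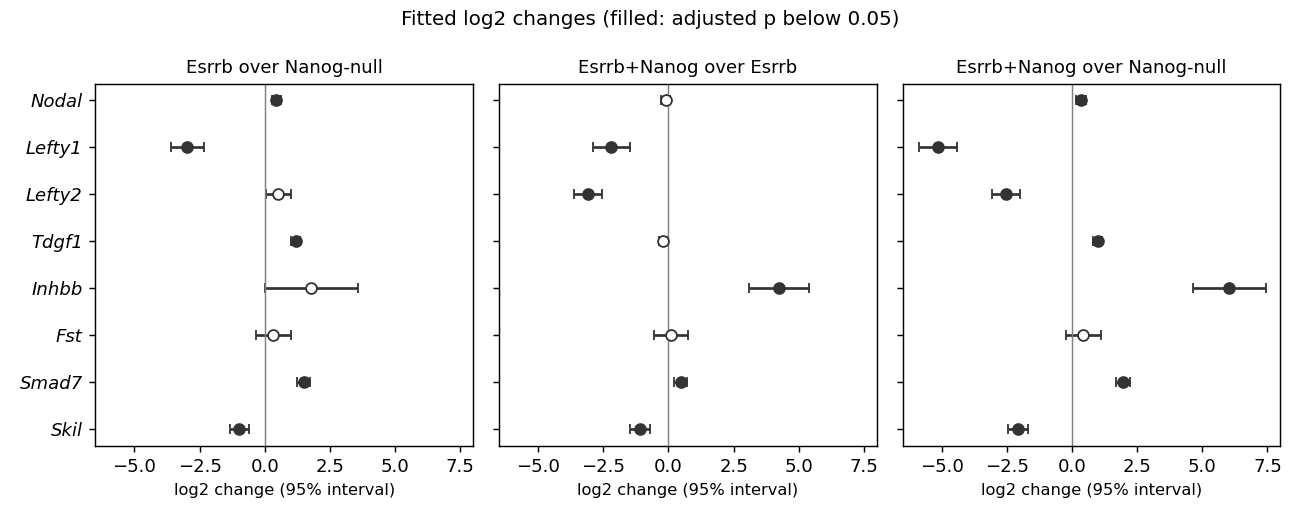
Fitted log2 changes of the 8 tested members in the 3 comparisons, with 95% intervals as bars; filled points have an adjusted p below 0.05. Lefty1 and Skil lie below 0 in all 3 panels and Smad7 above 0 in all 3, and Inhbb in Esrrb+Nanog cells lies furthest to the right, at 4.24 over Esrrb cells and 6.03 over Nanog-null cells.

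Among the ligands, Nodal (ENSMUSG00000037171, mm10 chromosome 10, 61417972 to 61425338, plus strand) changed little. It stood at 48.8, 57.7 and 60.1 CPM in Esrrb+Nanog libraries, at 57.7, 57.1 and 63.8 CPM in Esrrb libraries and at 42.9, 44.2 and 43.5 CPM in Nanog-null libraries. Every library of the lines with added genes was above every Nanog-null library, while the Esrrb+Nanog and Esrrb libraries overlapped. Nodal rose 1.37-fold in Esrrb cells over Nanog-null cells (log2 change 0.45 ± 0.08, adjusted p = 0.000858) and 1.28-fold in Esrrb+Nanog cells over Nanog-null cells (0.35 ± 0.08, adjusted p = 0.00359). Between Esrrb+Nanog and Esrrb cells it was not called (-0.10 ± 0.08, adjusted p = 0.477), and the 95% interval ran from -0.28 to 0.08. In bulk RNA, fewer cells that express a gene and less of its RNA per cell cannot be told apart.

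Inhbb (ENSMUSG00000037035, chromosome 1, 119415465 to 119422248, minus strand) encodes the beta B subunit, which forms activin B. Its level was 9.71, 27.0 and 42.4 CPM in Esrrb+Nanog libraries, 0.691, 2.49 and 0.922 CPM in Esrrb libraries and 0.417, 0.347 and 0.435 CPM in Nanog-null libraries. The lines did not overlap in any comparison, but Esrrb+Nanog libraries differed among themselves by a coefficient of variation of 62%, where the other tested members had 2.2% to 34.3%. In Esrrb libraries, at low counts, it was 71.5%, where the other tested members had 6.21% to 48.6%. Inhbb rose 18.8-fold in Esrrb+Nanog cells over Esrrb cells (log2 change 4.24 ± 0.53, adjusted p = 0.000477, and 5.03 without Esrrb replicate 2) and 65.2-fold over Nanog-null cells (6.03 ± 0.64, adjusted p = 1.23e-05). The difference between Esrrb cells and Nanog-null cells was not called (1.79 ± 0.81, adjusted p = 0.0887), on 20, 79 and 24 counts in Esrrb libraries against 9, 9 and 13 counts in Nanog-null libraries. That value fell to 1.00 without Esrrb replicate 2, and it passed the threshold in DESeq2 (adjusted p = 0.042), in a fit of the 2 lines alone (0.0161) and without Esrrb+Nanog replicate 1 (0.0173) or 3 (0.0425).

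Inhba (ENSMUSG00000041324, chromosome 13, 16011851 to 16031621, plus strand), the beta A subunit gene of activin A, was close to absent. It had 1, 0 and 0 counts in Esrrb+Nanog libraries, 0 counts in each of Esrrb libraries and 5, 34 and 11 counts in Nanog-null libraries. All libraries of the lines with added genes were below all Nanog-null libraries. Against the limit of 3 counts that a count of 0 over a whole line allows, Inhba was at least 18.7-fold lower in Esrrb cells than in Nanog-null cells. With 1 count in Esrrb+Nanog cells against 50 in Nanog-null cells, Nanog-null cells were 52.0-fold higher, with a 95% counting interval from 8.91 to 2090. These bounds cover counting error only, and 34 of the 50 Nanog-null counts came from replicate 2, the library high in markers of other cells. The part those cells have in the Inhba counts was not tested.

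**Figure D2:**
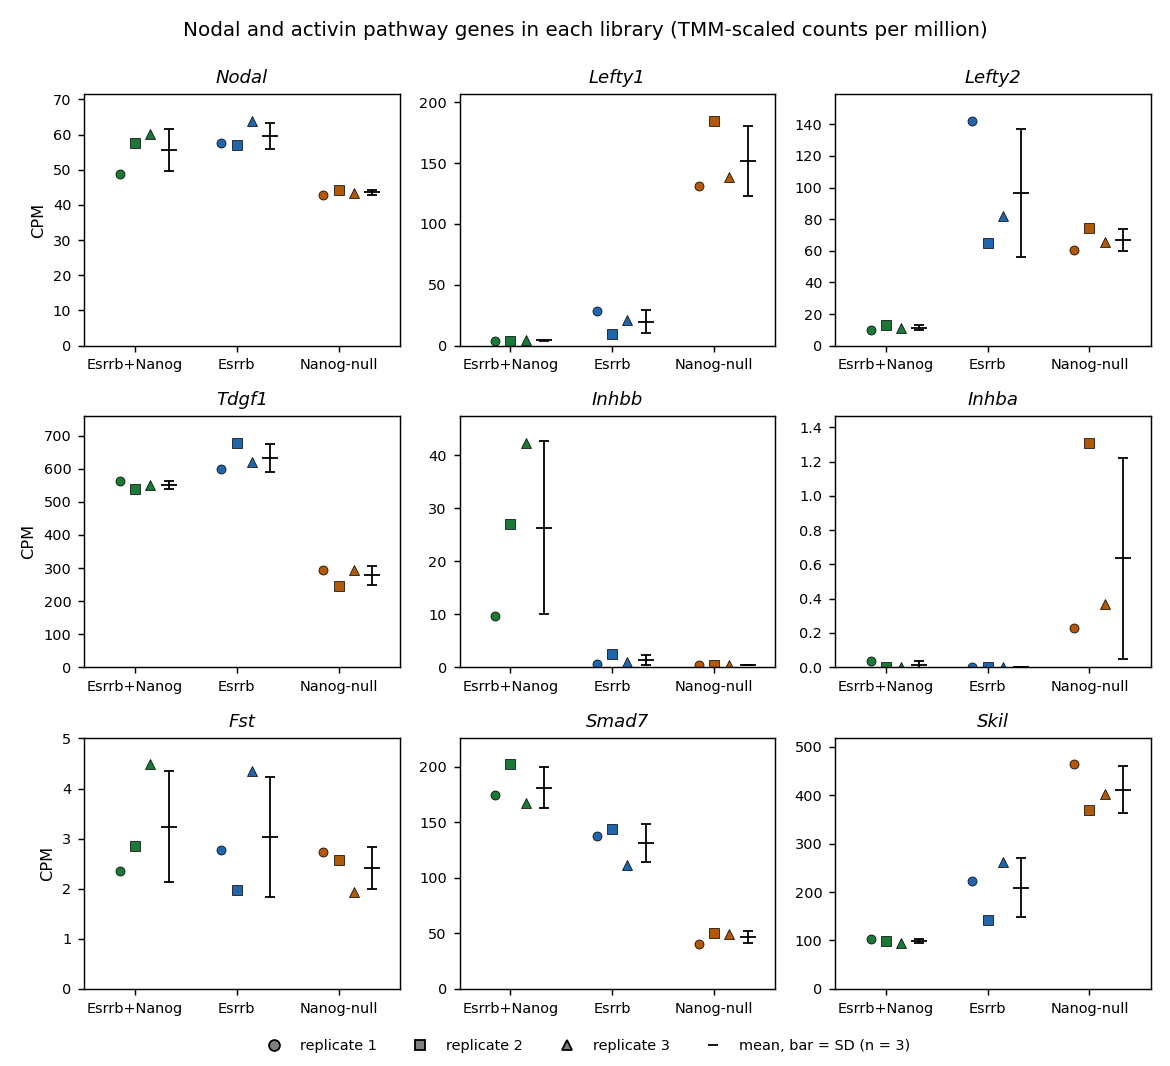
Level of each member in each library, in TMM-scaled CPM on a linear axis that starts at 0, with the mean and SD of the 3 libraries of a line beside the points. Lefty1 and Skil are lowest in Esrrb+Nanog cells and highest in Nanog-null cells, Smad7 and Inhbb run the other way, and the Fst libraries of the 3 lines overlap.

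The co-receptor gene Tdgf1 (ENSMUSG00000032494, chromosome 9, 110939603 to 110946158, minus strand) was the most abundant member. It stood at 563, 539 and 551 CPM in Esrrb+Nanog libraries, at 598, 678 and 620.3 CPM in Esrrb libraries and at 294, 245 and 295 CPM in Nanog-null libraries. No 2 lines overlapped, with Esrrb cells highest. Tdgf1 rose 2.28-fold in Esrrb cells over Nanog-null cells (log2 change 1.19 ± 0.08, adjusted p = 5.16e-07) and 1.98-fold in Esrrb+Nanog cells over Nanog-null cells (0.99 ± 0.08, adjusted p = 1.33e-06). Esrrb+Nanog cells lay slightly below Esrrb cells without a call (-0.20 ± 0.08, adjusted p = 0.112, 95% interval -0.37 to -0.03). Of the 50-base runs in its longest transcript, 12.5% also occur in the pseudogene Tdgf1-ps1, so part of its reads could be shared with that copy.

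Lefty1 (ENSMUSG00000038793, chromosome 1, 180935022 to 180938400) showed the widest called fall. It was at 4.14, 4.22 and 4.41 CPM in Esrrb+Nanog libraries, at 28.2, 9.44 and 20.7 CPM in Esrrb libraries and at 131, 184 and 139 CPM in Nanog-null libraries. The 3 lines formed 3 separate levels, and Esrrb libraries varied most, with a coefficient of variation of 48.6% against 3.3% in Esrrb+Nanog libraries. Lefty1 was 7.81-fold lower in Esrrb cells than in Nanog-null cells (log2 change -2.97 ± 0.29, adjusted p = 8.13e-06) and 4.55-fold lower in Esrrb+Nanog cells than in Esrrb cells (-2.19 ± 0.33, adjusted p = 0.0015). Esrrb+Nanog cells were 35.5-fold below Nanog-null cells (-5.15 ± 0.33, adjusted p = 3.22e-07).

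Lefty2 (ENSMUSG00000066652, chromosome 1, 180893108 to 180899103), the neighbouring gene for a closely related protein, had another pattern. It was at 10.2, 12.7 and 11.4 CPM in Esrrb+Nanog libraries, at 142, 64.7 and 82.1 CPM in Esrrb libraries and at 60.4, 74.4 and 65.7 CPM in Nanog-null libraries. Esrrb+Nanog libraries were below all others, while those of the Esrrb and Nanog-null lines overlapped. Lefty2 was 8.41-fold lower in Esrrb+Nanog cells than in Esrrb cells (log2 change -3.07 ± 0.25, adjusted p = 2.66e-05) and 5.84-fold lower than in Nanog-null cells (-2.55 ± 0.25, adjusted p = 5.86e-06). In Esrrb cells against Nanog-null cells it was not called (0.53 ± 0.22, adjusted p = 0.0668, 95% interval 0.05 to 1.01). That value was 0.75 and called without Esrrb replicate 2 (adjusted p = 0.00544), 0.63 and called without Esrrb replicate 3 (0.0494), and 0.14 without Esrrb replicate 1 (0.416).

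The order of the 2 Lefty genes turned round between lines. Per kb of exon, the level of Lefty1 over that of Lefty2 was 0.605, 0.492 and 0.572 in Esrrb+Nanog libraries, 0.295, 0.217 and 0.374 in Esrrb libraries and 3.23, 3.68 and 3.13 in Nanog-null libraries. Lefty2 was thus the more abundant in all 6 libraries with added genes and Lefty1 in all 3 Nanog-null libraries, which is given as a description without a test. The 2 transcripts share sequence, with 17.9% of the 50-base runs of Lefty1 found in Lefty2 and 11.6% of those of Lefty2 found in Lefty1. How reads that fit both were counted is not given in the sources used here, and the lower of the 2 levels is therefore the less certain.

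Fst (ENSMUSG00000021765, chromosome 13, 114452290 to 114458951, minus strand), which encodes the activin-binding protein follistatin, was low in every library. It had 2.36, 2.86 and 4.48 CPM in Esrrb+Nanog libraries, 2.76, 1.98 and 4.34 CPM in Esrrb libraries and 2.73, 2.58 and 1.94 CPM in Nanog-null libraries. All 3 lines overlapped. No comparison called it, with log2 changes of 0.32 ± 0.31 in Esrrb cells over Nanog-null cells (adjusted p = 0.416), 0.11 ± 0.30 in Esrrb+Nanog cells over Esrrb cells (0.855) and 0.43 ± 0.31 in Esrrb+Nanog cells over Nanog-null cells (0.26). The 95% interval of the last ran from -0.24 to 1.11. The coefficient of variation between libraries was 34.3% in Esrrb+Nanog cells, 39.7% in Esrrb cells and 17.4% in Nanog-null cells. Its exons share 115 bases with those of an antisense gene, Gm47040, and whether reads were counted by strand is not given in the sources used here.

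**Figure D3:**
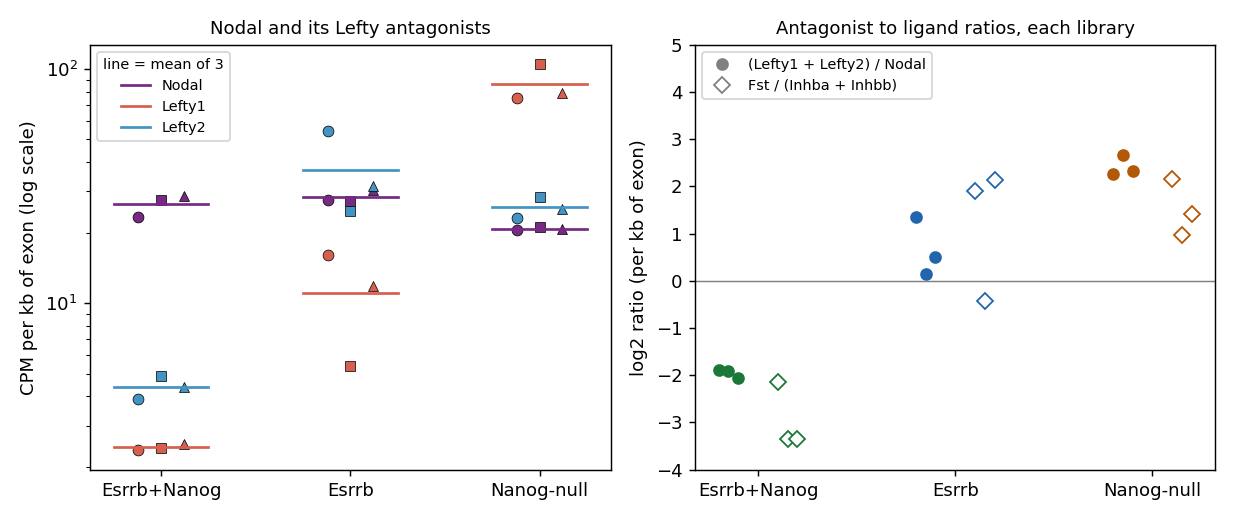
On the left, levels of Nodal, Lefty1 and Lefty2 per kb of exon on a log axis in each library, with lines at the means. On the right, the log2 ratio of both Lefty genes over Nodal (filled) and of Fst over both activin subunit genes (open) in each library, where Esrrb+Nanog libraries lie lowest in both, and the Lefty ratio lies below 0 in that line alone.

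With the lengths of the genes taken into account, the balance of Lefty antagonists to Nodal differed between the lines in every library. The ratio of Lefty1 plus Lefty2 to Nodal, per kb of exon, was 0.268, 0.265 and 0.240 in Esrrb+Nanog libraries, 2.56, 1.11 and 1.42 in Esrrb libraries and 4.79, 6.32 and 5.01 in Nanog-null libraries. Lefty transcripts were thus fewer than Nodal transcripts in each Esrrb+Nanog library and more numerous in each other library. On the log2 scale the ratio averaged -1.96 ± 0.09 in Esrrb+Nanog cells, 0.67 ± 0.62 in Esrrb cells and 2.41 ± 0.22 in Nanog-null cells. The differences were -1.75 for Esrrb cells minus Nanog-null cells, -2.63 for Esrrb+Nanog cells minus Esrrb cells and -4.37 for Esrrb+Nanog cells minus Nanog-null cells, with a two-sided exact permutation p of 0.1 for each. With 3 libraries against 3, 0.1 is the smallest p this test can give, so none could reach 0.05.

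The ratio of follistatin to activin subunit transcripts, Fst over Inhba plus Inhbb, was 0.225, 0.0980 and 0.0980 in Esrrb+Nanog libraries. It was 3.71, 0.739 and 4.37 in Esrrb libraries and 4.44, 1.96 and 2.65 in Nanog-null libraries. Esrrb+Nanog libraries were below all others, and the Esrrb and Nanog-null libraries overlapped. The log2 difference was -4.15 for Esrrb+Nanog cells minus Esrrb cells and -4.46 for Esrrb+Nanog cells minus Nanog-null cells (exact permutation p = 0.1 for both, the smallest possible). The first of these was -4.96 without Esrrb replicate 2. It was -0.32 for Esrrb cells minus Nanog-null cells (exact permutation p = 0.8), which turned to 0.50 without Esrrb replicate 2. Inhbb made up nearly all activin subunit counts in Esrrb+Nanog libraries, where Inhba had 1 count.

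The intracellular antagonists moved in opposite directions. Smad7 (ENSMUSG00000025880, chromosome 18, 75367529 to 75395935, plus strand), whose protein blocks the receptor and brings ubiquitin ligases to it, was at 175, 202 and 167 CPM in Esrrb+Nanog libraries, at 138, 144 and 112 CPM in Esrrb libraries and at 40.3, 50.2 and 49.4 CPM in Nanog-null libraries. No 2 lines overlapped. It rose 2.81-fold in Esrrb cells over Nanog-null cells (log2 change 1.49 ± 0.11, adjusted p = 1.67e-06) and 3.88-fold in Esrrb+Nanog cells over Nanog-null cells (1.96 ± 0.12, adjusted p = 1.72e-07). The further rise in Esrrb+Nanog cells over Esrrb cells was 1.38-fold (0.47 ± 0.11, adjusted p = 0.017). That call ended without Esrrb+Nanog replicate 2 (0.38, adjusted p = 0.0776) or Esrrb replicate 3 (0.36, adjusted p = 0.0553).

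Skil (ENSMUSG00000027660, chromosome 3, 31095058 to 31122577, plus strand) encodes SnoN, a co-repressor that binds the SMAD complex. It was at 103, 98.4 and 94.5 CPM in Esrrb+Nanog libraries, at 223, 142 and 263 CPM in Esrrb libraries and at 464, 369 and 403 CPM in Nanog-null libraries. The 3 lines again formed separate levels, in the reverse order to Smad7. Skil fell by 0.98 ± 0.17 on the log2 scale in Esrrb cells against Nanog-null cells (adjusted p = 0.000622). It fell by 1.08 ± 0.17 in Esrrb+Nanog cells against Esrrb cells (adjusted p = 0.00212) and by 2.06 ± 0.18 against Nanog-null cells (adjusted p = 2.45e-06), which is 4.17-fold.

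Libraries of the compared lines did not overlap for 6 of the 8 tested members in Esrrb cells against Nanog-null cells, for 6 in Esrrb+Nanog cells against Esrrb cells and for 7 in Esrrb+Nanog cells against Nanog-null cells. Over all tested genes this was so for 58.4%, 31.6% and 61.9%.

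Levels of different members were compared per kb of exon. Tdgf1 led in every line, at 210.0 ± 4.6 CPM per kb in Esrrb+Nanog cells, 241 ± 16 in Esrrb cells and 106 ± 11 in Nanog-null cells. It was followed in Esrrb+Nanog cells by Smad7 (40.1 ± 4.1 CPM per kb), Nodal (26.5 ± 2.8) and Skil (10.2 ± 0.45), and then by Inhbb, Lefty2, Lefty1, Fst and Inhba. Inhbb overlapped Skil, Lefty2 and Lefty1. In Esrrb cells the order after Tdgf1 was Lefty2 (36.9 ± 16 CPM per kb), Smad7 (29.0 ± 3.8), Nodal (28.4 ± 1.8) and Skil (21.6 ± 6.4), then Lefty1, Fst, Inhbb and Inhba. There Lefty2 overlapped Smad7, Nodal and Skil, Smad7 overlapped Nodal and Skil, Skil overlapped Lefty1 and Fst overlapped Inhbb. In Nanog-null cells Lefty1 (86.2 ± 16 CPM per kb) overlapped Tdgf1 at the top, and Skil (42.5 ± 4.9), Lefty2 (25.6 ± 2.7), Nodal (20.8 ± 0.32) and Smad7 (10.3 ± 1.2) followed without overlap. Fst came next, and Inhba and Inhbb, at 0.0996 ± 0.092 and 0.0939 ± 0.011 CPM per kb, overlapped at the bottom.

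The other genes of the pathway were counted from lists of ligands and processing enzymes, receptors, transducers and cofactors, further antagonists, targets in lineage choice, and TGF-beta ligands with their partners. The counts are to be read beside the shares of all tested genes called. These were 48.5% in Esrrb cells against Nanog-null cells, 13.2% in Esrrb+Nanog cells against Esrrb cells and 54.4% in Esrrb+Nanog cells against Nanog-null cells. Of 8 tested ligand and processing genes, 1 was higher and 2 lower in Esrrb cells against Nanog-null cells, 0 higher and 1 lower in Esrrb+Nanog cells against Esrrb cells, and 2 higher and 3 lower in Esrrb+Nanog cells against Nanog-null cells. Pcsk6, which encodes PACE4, a convertase that cleaves the Nodal precursor, averaged 134 ± 19 CPM in Esrrb cells and 16.3 ± 1.6 CPM in Nanog-null cells (log2 change 3.03 ± 0.12, adjusted p = 1.15e-08). It averaged 109 ± 11 CPM in Esrrb+Nanog cells (2.73 over Nanog-null cells, adjusted p = 1.56e-08). Furin, the gene of the other convertase best known for Nodal, went the other way, at 22.3 ± 1.8 CPM in Esrrb cells and 44.1 ± 10 CPM in Nanog-null cells (-0.98 ± 0.18, adjusted p = 0.000838), and at 21.0 ± 5.3 CPM in Esrrb+Nanog cells (-1.07 against Nanog-null cells, adjusted p = 0.000391). The inhibin subunit genes Inhbe and Inhbc were near or under 1 CPM throughout. Inhbe had log2 changes of -2.51 in Esrrb cells (-3.34 without Esrrb replicate 3) and -3.74 in Esrrb+Nanog cells against Nanog-null cells (adjusted p = 0.00109 and 0.000181). Inhbc fell by 3.35 in Esrrb+Nanog cells against Nanog-null cells (adjusted p = 0.00264, and a log2 change of -4.02 without Esrrb+Nanog replicate 1). Its fall of 2.67 against Esrrb cells (adjusted p = 0.0484) was lost in 9 of 14 settings, and all but 1 of those 9 left out a library.

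Of 6 tested receptor genes, 1 was higher and 2 lower in Esrrb cells against Nanog-null cells, where 48.5% of all tested genes were called. Acvr2b, a type II activin receptor gene, averaged 55.3 ± 7.8 CPM in Esrrb cells and 91.3 ± 5.1 CPM in Nanog-null cells (log2 change -0.72 ± 0.11, adjusted p = 0.000276). Cfc1, the second EGF-CFC co-receptor gene, had 1 count in Esrrb cells and 50 in Nanog-null cells, a ratio of 56.0 in favour of Nanog-null cells (95% counting interval 9.6 to 2260). It also had 1 count in Esrrb+Nanog cells (ratio 52.0, interval 8.91 to 2090). Tgfbr3, a co-receptor gene for TGF-beta and inhibin, rose by 0.92 in Esrrb cells (adjusted p = 0.0158), a call that ended without Esrrb replicate 2 (0.0553) or Nanog-null replicate 1 (0.0649) or 3 (0.0741). In Esrrb+Nanog cells against Nanog-null cells, 1 was higher, the type I receptor gene Acvr1b (0.36, adjusted p = 0.003), and 3 were lower, Acvr2b (-0.98, adjusted p = 2.49e-05), Cfc1 and Acvr2a (-0.34, adjusted p = 0.0338). Without Nanog-null replicate 2, 2 were higher, Tgfbr3 being added (1.01, adjusted p = 0.0101, against 0.65 and 0.068 with all libraries). The Acvr2a call ended with library totals alone and without Esrrb+Nanog replicate 2 or 3 or Nanog-null replicate 1 or 3. Between Esrrb+Nanog and Esrrb cells edgeR called 0 of the 6, with 2 at an unadjusted p below 0.05 and 1 called by DESeq2.

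Of the 7 transducer and cofactor genes, 1 was higher and 4 lower in Esrrb cells against Nanog-null cells, and the same counts held in Esrrb+Nanog cells against Nanog-null cells. Of all tested genes, 48.5% and 54.4% were called in these comparisons. Smad3, a receptor-activated SMAD gene, averaged 5.91 ± 0.29 CPM in Esrrb cells and 23.3 ± 4.8 CPM in Nanog-null cells (log2 change -1.98 ± 0.19, adjusted p = 8.38e-06). The gene averaged 7.08 ± 2.0 CPM in Esrrb+Nanog cells (-1.72, adjusted p = 1.61e-05). Zfyve9, which encodes the SMAD anchor SARA, fell by 0.74 in Esrrb cells and by 0.78 in Esrrb+Nanog cells (adjusted p = 0.000658 and 0.000386). Foxh1, the DNA-binding partner gene, fell by 0.35 and 0.59 (adjusted p = 0.00174 and 3.68e-05), and Trim33, which encodes a chromatin reader that binds SMAD2 and SMAD3, fell by 0.24 and 0.42 (adjusted p = 0.00819 and 0.000198). Between Esrrb+Nanog and Esrrb cells edgeR called 0 of the 7, with 2 at an unadjusted p below 0.05 and 1 called by DESeq2. Without Nanog-null replicate 2, 0 were higher in Esrrb cells.

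**Figure D4:**
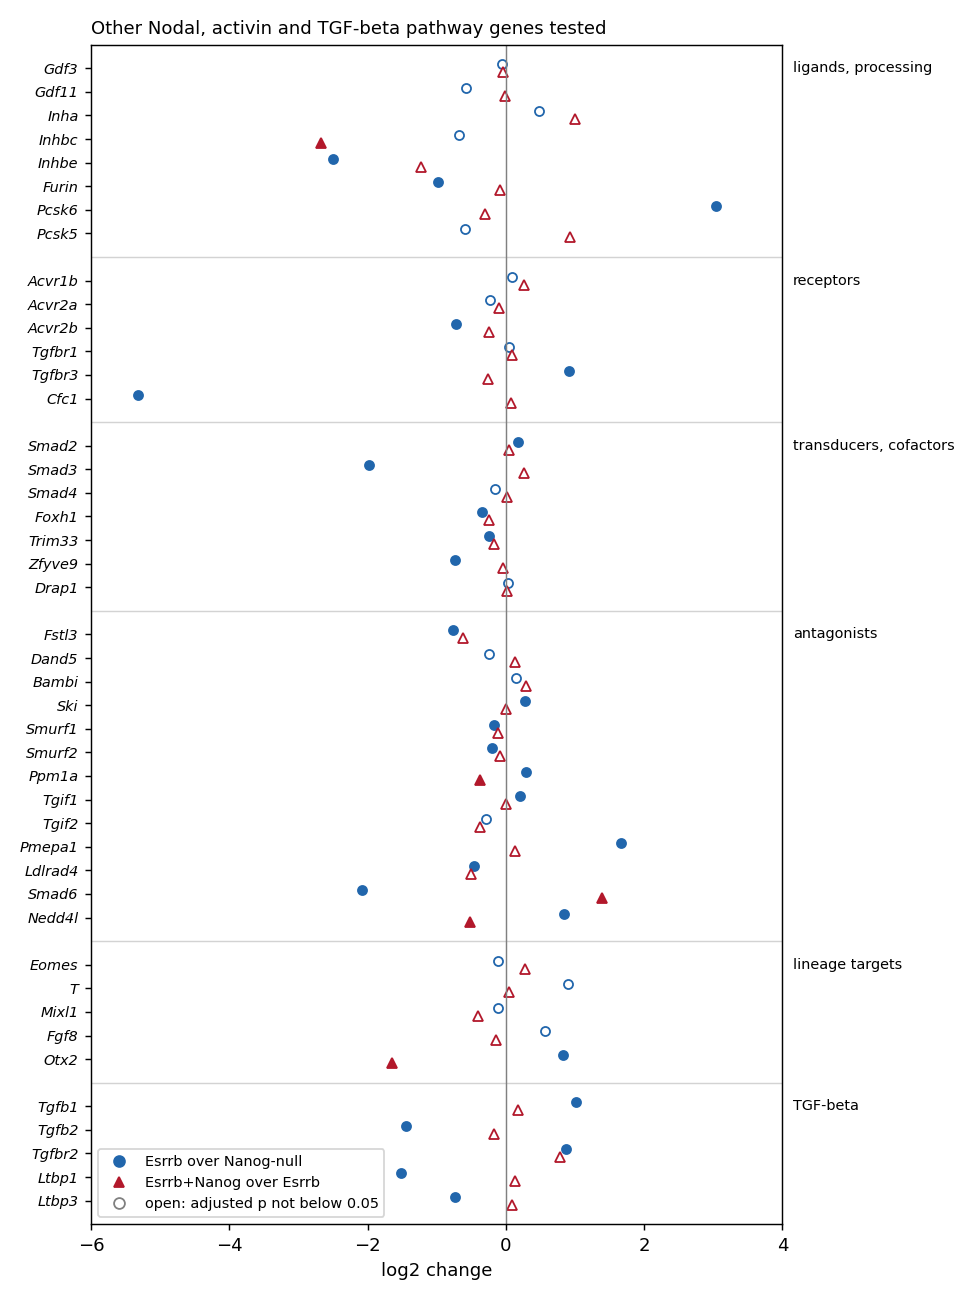
Log2 changes of the other tested genes of the pathway, grouped by role, in Esrrb cells over Nanog-null cells (circles) and in Esrrb+Nanog cells over Esrrb cells (triangles); filled symbols have an adjusted p below 0.05. Pcsk6 lies furthest to the right, at 3.03, and filled triangles are few, with none among receptors, transducers and TGF-beta genes.

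Of 13 further antagonists, 5 were higher and 5 lower in Esrrb cells against Nanog-null cells (4 and 2 without Nanog-null replicate 2), 1 higher and 2 lower in Esrrb+Nanog cells against Esrrb cells, and 5 and 5 in Esrrb+Nanog cells against Nanog-null cells. Of all tested genes, 48.5%, 13.2% and 54.4% were called in these comparisons. Pmepa1, whose product holds SMAD2 and SMAD3 away from the receptor, averaged 24.6 ± 6.1 CPM in Esrrb cells and 7.77 ± 1.9 CPM in Nanog-null cells (log2 change 1.66 ± 0.21, adjusted p = 6.82e-05), and was at 27.0 ± 5.3 CPM in Esrrb+Nanog cells (1.79 over Nanog-null cells, adjusted p = 2.93e-05). Nedd4l, a ubiquitin ligase gene, rose by 0.84 in Esrrb cells over Nanog-null cells (adjusted p = 1.15e-05) and fell by 0.52 in Esrrb+Nanog cells against Esrrb cells (adjusted p = 0.00222). Ppm1a, a SMAD phosphatase gene, did the same on a smaller scale (0.28 and -0.37, adjusted p = 0.000713 and 0.000827). Smad6, an inhibitory SMAD gene known chiefly for BMP signalling, averaged 1.39 ± 0.55 CPM in Esrrb cells and 5.90 ± 1.3 CPM in Nanog-null cells (-2.09 ± 0.36, adjusted p = 0.000591). Its rise in Esrrb+Nanog cells over Esrrb cells (1.39 ± 0.37, adjusted p = 0.0299) was lost in a fit of the 2 lines alone (0.0501) and without Esrrb+Nanog replicate 3 (0.111) or Esrrb replicate 1 (0.112) or 3 (0.0575). Against Nanog-null cells, Esrrb+Nanog cells were lower in Ldlrad4 (-0.97, adjusted p = 0.000736), Tgif2 (-0.66, adjusted p = 0.000742) and the follistatin-like gene Fstl3 (-1.39, adjusted p = 0.000961).

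Of 5 tested target genes in lineage choice, 1 was higher and 0 lower in Esrrb cells against Nanog-null cells, 0 and 1 in Esrrb+Nanog cells against Esrrb cells, and 0 and 1 in Esrrb+Nanog cells against Nanog-null cells. The shares of all tested genes called were 48.5%, 13.2% and 54.4%. The target gene called was the same in all 3 comparisons. Otx2, a homeobox gene of the epiblast, was highest in Esrrb cells. It averaged 123 ± 27 CPM there and 69.6 ± 8.0 CPM in Nanog-null cells (0.82 ± 0.21, adjusted p = 0.00659), and 39.4 ± 14 CPM in Esrrb+Nanog cells, where it fell by 1.64 ± 0.22 against Esrrb cells (adjusted p = 0.000642) and by 0.82 against Nanog-null cells (adjusted p = 0.00669). Gsc, Foxa2 and Lhx1 were too low to be tested.

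The TGF-beta genes proper belong to the sister branch that shares SMAD2 and SMAD3. Those tested were ligand, receptor and latent binding protein genes. They gave 2 higher and 3 lower of 5 in Esrrb cells and again in Esrrb+Nanog cells against Nanog-null cells. Tgfb1 rose by 1.01 and 1.19 (adjusted p = 0.000816 and 0.000206) and the latent binding protein gene Ltbp1 fell by 1.51 and 1.39 (adjusted p = 3.95e-05 and 5.54e-05). Tgfb2 fell by 1.44 and 1.62 (adjusted p = 0.00697 and 0.0034), and by 0.79 and 0.95 without Nanog-null replicate 2. Ltbp3 fell by 0.73 in Esrrb cells (adjusted p = 0.0111), and the receptor gene Tgfbr2 rose by 1.64 in Esrrb+Nanog cells (adjusted p = 0.000241). Between Esrrb+Nanog and Esrrb cells edgeR called 0 of the 5, with 1 at an unadjusted p below 0.05 and 1 called by DESeq2. Without Nanog-null replicate 2, 1 was higher, Tgfbr2 (0.79, adjusted p = 0.0178, against 0.78 and 0.0549 with all libraries). All of these counts can be read against the same shares of called genes as the members' own.

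Markers of other cells also differed between the lines. Summed primitive endoderm markers were at 407 to 483 CPM in Esrrb+Nanog cells, 236 to 362 CPM in Esrrb cells and 60.8 to 189 CPM in Nanog-null cells, and none of the 10 was at 0 in any line. Lama1, a laminin gene, made up most of the Esrrb+Nanog sum, at 356 ± 42 CPM in Esrrb+Nanog cells, 136 ± 41 CPM in Esrrb cells and 43.6 ± 19 CPM in Nanog-null cells. Without it the other 9 markers summed to 72.8 to 85.5 CPM in Esrrb+Nanog cells, 132 to 180 CPM in Esrrb cells and 32.7 to 125 CPM in Nanog-null cells, so the Esrrb cells were then highest. In Esrrb cells against Nanog-null cells 5 of 9 tested markers were higher and 1 was lower, where 48.5% of all tested genes were called. In Esrrb+Nanog cells against Nanog-null cells 2 were higher and 2 lower, where 54.4% were called. In Esrrb+Nanog cells against Esrrb cells 1 was higher, Lama1, and 3 were lower, where 13.2% were called. Among the 3 was the transcription factor gene Gata6, at 6.90 ± 3.5 CPM in Esrrb+Nanog cells and 25.2 ± 13 CPM in Esrrb cells. The receptor gene Pdgfra, against whose protein the cells were sorted, averaged 2.90 ± 1.1 CPM in Esrrb+Nanog cells, 10.4 ± 4.2 CPM in Esrrb cells and 2.29 ± 2.0 CPM in Nanog-null cells. By edgeR it was higher in Esrrb cells than in Nanog-null cells (log2 change 2.16, adjusted p = 0.00474). Its fall in Esrrb+Nanog cells against Esrrb cells (-1.85, adjusted p = 0.0337) was lost in 7 of 16 settings. Pecam1, the gene of the protein for which the cells were sorted, averaged 49.8 ± 4.0 CPM in Esrrb+Nanog cells, 61.9 ± 8.7 CPM in Esrrb cells and 101 ± 8.6 CPM in Nanog-null cells. It was lower than in Nanog-null cells both in Esrrb cells (log2 change -0.71 ± 0.10, adjusted p = 0.000176) and in Esrrb+Nanog cells (-1.02 ± 0.10, adjusted p = 9.38e-06). Summed trophoblast markers were at 40.8 to 47.6 CPM in Esrrb+Nanog cells, 29.6 to 56.4 CPM in Esrrb cells and 93.9 to 243 CPM in Nanog-null cells, with Elf5 at 0 in Esrrb cells. Summed fibroblast markers were at 7.57 to 14.1 CPM in Esrrb+Nanog cells, 7.38 to 13.8 CPM in Esrrb cells and 13.7 to 83.4 CPM in Nanog-null cells, with Col3a1, Dcn and Postn at 0 in Esrrb+Nanog cells and Postn at 0 in Esrrb cells. Of 4 tested, 3 were lower and 1 higher in Esrrb cells against Nanog-null cells. The marker that went the other way was Thy1. It averaged 9.24 ± 3.0 CPM in Esrrb+Nanog cells, 8.96 ± 3.2 CPM in Esrrb cells and 2.27 ± 0.20 CPM in Nanog-null cells. The part of such cells, or of the sort, in the members' changes was not tested. Without Nanog-null replicate 2, which is highest in all 3 lists within its line, the log2 change in Esrrb cells over Nanog-null cells was -2.81 for Lefty1, 1.53 for Smad7 and 1.09 for Tdgf1, all called. Nodal and Skil kept their calls as well. Leaving that library out did not remove the markers from the line. Nanog-null replicates 1 and 3 held 93.9 and 138 CPM of trophoblast markers, where libraries of the other lines held at most 56.4 CPM.

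The genes whose profiles over the 9 libraries were nearest to those of 4 members were found among 10134 genes with a mean of at least 5 CPM, as the root mean square difference of log2 CPM after each gene was centred on its own mean. Nearest to Nodal were Kif18b (0.0485), Pou5f1 (0.0535) and Ndufa4 (0.0567). Nearest to Tdgf1 were Dennd2c (0.062), Pqlc3 (0.0793) and Mllt6 (0.0927). Nearest to Lefty1 were Ap3b2 (0.224), Slc23a1 (0.349) and Vrtn (0.42), and nearest to Lefty2 were Mup6 (0.414), Aass (0.55) and Hmga2 (0.579). Ap3b2, for one, stood at 1.09 ± 0.18 CPM in Esrrb+Nanog cells, 5.09 ± 1.7 CPM in Esrrb cells and 35.9 ± 4.6 CPM in Nanog-null cells. The distances of the Lefty genes' neighbours were larger than those of the neighbours of Nodal and Tdgf1. They were not scaled to a gene's own range, which was wider for the Lefty genes. The distances therefore cannot rank how closely the neighbours of different members followed them. Genes within a library share its depth, and these distances are descriptions over 9 libraries.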

How the data were processed

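Read counts per gene are the values the authors deposited, in 1 table of 52636 Ensembl gene IDs and 15 library columns, of which 6 matched no sample and were not used here. Per the submitters' processing notes, bcl2fastq 2.19.1, STAR 2.5.3a and the mm10 build were used; how STAR's output was counted, and whether by strand, is not given in the sources used here. Per the labels' protocols, total RNA was treated with DNase and depleted of ribosomal RNA. No 2 of the 9 libraries were identical.

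The count test was edgeR 4.0.16, run under R 4.3.3 (default low-count filter over the 3 lines, trimmed mean of M values scaling, and 1 quasi-likelihood fit over 9 libraries whose only covariate was the line) and Benjamini-Hochberg adjustment over 16198 genes at 0.05. CPM carry no pseudocount. Standard errors were worked back from the F statistics. Per-kb levels use exon lengths of GENCODE M21 (mm10). DESeq2 1.42.0, other scalings and filters, a fit of the 2 lines alone, the replicate number as a block and each library left out were alternatives. The fit was also run on simulated data, where the share of false calls was above the threshold of 0.05 in each comparison. The members, gene lists and tests were chosen with earlier results of these data known. Named beyond the members are up to 4 called genes per list and comparison with the smallest adjusted p, the altered and sorted genes, and the nearest 3 profiles. Results of some genes are not reported here.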

Additional observations from a re-analysis of the deposited data

How the results depend on the processing

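Of the 17 called changes of members, 16 stayed called with the same direction in all 16 settings tried, and 1, Smad7 in Esrrb+Nanog cells over Esrrb cells, was lost without Esrrb+Nanog replicate 2 or Esrrb replicate 3. For that reason the number of members called higher there ran from 1 to 2 when libraries were left out. The number of all genes called in that comparison ran from 1105 to 2374 when libraries were left out, against 2135 in all (1105 without Esrrb replicate 1, 1215 without Esrrb+Nanog replicate 2 and 1378 without Esrrb replicate 3). Its split of 880 higher and 1255 lower became 1386 and 941 with library totals alone, a shift of 0.0638 in the median log2 change. With no low-count filter, 5 members in place of 3 were called higher in Esrrb cells over Nanog-null cells, Lefty2 and Inhbb being added. P-values in that fit carry little weight.

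The small changes of Fst turned round. With libraries left out, its log2 change ran from -0.018 (without Esrrb replicate 3) to 0.56 in Esrrb cells over Nanog-null cells. In Esrrb+Nanog cells over Esrrb cells it ran from -0.21 (without Esrrb+Nanog replicate 3) to 0.45, and was -0.13 without Esrrb replicate 2. The follistatin to activin ratio in Esrrb cells minus Nanog-null cells ran from -0.78 to 0.50 when libraries were left out, at 0.50 without Esrrb replicate 2 and 0.0053 without Nanog-null replicate 1. Pdgfra in Esrrb+Nanog cells over Nanog-null cells ran from -0.15 (without Nanog-null replicate 1) to 1.15. The cause was not tested. Of 55 calls of other named genes, 49 held in every setting.

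Deviations of same-numbered libraries of 2 lines had correlations from -0.0248 to 0.278, highest for replicate 2 of Esrrb+Nanog and Esrrb cells. Not every pair was above 0.1, so the numbers were not taken to pair the libraries, and 4 of 9 libraries were closest to a library of their own number. With the replicate block, 2381 genes were called in Esrrb+Nanog cells over Esrrb cells, and Inhbb in Esrrb cells over Nanog-null cells gained a call (adjusted p = 0.0133). No other call of a member changed under the block. Inhba is limited by depth, with at most 34 counts in a library.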

Other observations

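Lefty2 and Lefty1 lie 35918 bases apart on the plus strand of chromosome 1 (mm10). Tmem63a, an ion channel gene 3943 bases downstream of the end of Lefty1, averaged 1.93 ± 0.34 CPM in Esrrb+Nanog cells, 4.43 ± 1.2 CPM in Esrrb cells and 19.0 ± 4.0 CPM in Nanog-null cells. It was lower in Esrrb cells than in Nanog-null cells (log2 change -2.10, adjusted p = 1.03e-05) and lower in Esrrb+Nanog cells than in Esrrb cells (-1.19, adjusted p = 0.00767), by edgeR. The lines thus stood in the same order for Tmem63a and Lefty1. Ephx1, the next gene on, was highest in Esrrb cells, at 4.52 ± 0.64 CPM in Esrrb+Nanog cells, 9.31 ± 1.3 CPM in Esrrb cells and 3.29 ± 0.39 CPM in Nanog-null cells. It was higher in Esrrb cells than in Nanog-null cells (1.49, adjusted p = 2.18e-05) and lower in Esrrb+Nanog cells than in Esrrb cells (-1.04, adjusted p = 0.0016). These 2 genes were the tested ones within 100 kb downstream of Lefty1, a window chosen after the data were seen. In these 2 comparisons 48.5% and 13.2% of all tested genes were called.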
